A study of Mus musculus with 6 samples.

Results

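The 10 genes described here, Ugt8a, Fa2h, Aspa, Trf, Hapln2, Efhd1, Cryab, Car2, Gsn and Enpp2, are all expressed by mature oligodendrocytes, the brain cells that wrap axons in myelin. They were chosen by symbol from the 13724 gene entries of the expression table, and all 10 were listed, once each. The choice was made with the difference between the fractions of these same libraries known, so that difference is a description: no p-value is given for any of them, and counts of their calls stand beside the share of all genes called, with nothing read from them. The 3 phospho-S6 immunoprecipitates (IP) and the 3 inputs all came from wild type C57Bl6/J mice exposed to warmth, 1 library of each kind for each of 3 numbered warm challenges. The IP libraries hold RNA recovered with an antibody to phosphorylated ribosomal protein S6, a mark placed on ribosomes of active neurons, and the inputs hold total RNA of the dissected anterior hypothalamus. No group at another temperature was analysed here, and the labels do not say how many animals each library holds, so spreads below are those between libraries and may be technical.

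Myelin is unusually rich in galactolipids. Oligodendrocytes make these by adding galactose to ceramide and by hydroxylating the fatty acid tail, and they draw part of the carbon for lipid from the acetate of N-acetylaspartate, a compound made in neurons. Oligodendrocytes are also the main iron-holding cells of the brain and express carbonic anhydrase, small heat shock proteins, actin-severing proteins and secreted enzymes that support the sheath and the axon. Several of these genes are used elsewhere in the brain too: transferrin and autotaxin are also made by the choroid plexus, and alpha B-crystallin by astrocytes.

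All values are RPKM, a unit corrected for the length of the gene and the size of the library, which allows levels of different genes to be compared. Summed RPKM lay between 374708 and 496125 per library, and the absolute sequencing depth is unknown. Folds are IP minus input on the log2(RPKM + 1) scale, fitted by limma, a linear model that shares variance information across the 12328 genes that reached 1 RPKM in no fewer than 3 libraries, and they understate the change of genes near 1 RPKM. A gene is called where its Benjamini-Hochberg adjusted p over those genes lies under 0.05. The median fold of all genes tested was -0.18. The IP library of warm challenge 1 stood apart. It scored 49.0 on the second principal component (26.0% of the variance), against -19.9 to 10.01 for the other 5 libraries. On the first component (43.2%) it scored 10.31, against 36.65 and 41.28 for IP 2 and 3 and -31.5 to -25.25 for the inputs. Results are therefore also given without that library. The tissue is labelled as preoptic neurons, but the inputs held glial RNA as well. The 15 structural myelin genes summed to 430 to 621 RPKM in IP and to 1253 to 1355 RPKM in input, and 11 neuronal markers to 4506 to 7888 RPKM in IP and 5052 to 6413 RPKM in input.

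Levels of 9 of the 10 genes were lower in every IP library than in every input library, and Gsn was the exception. The ratio of group means ran from 11.4% of input for Efhd1 to 60.0% for Enpp2 among these 9, while Gsn stood at 107%. Together the 10 genes took 0.0234% to 0.0373% of the summed RPKM of the IP libraries and 0.115% to 0.143% of that of the inputs. The median log2 fold over the 10 genes was -2.08, against -0.18 over all genes tested. Of all genes tested, 23.5% likewise had all 3 IP values below all 3 input values. In the fit over all genes, 7 of the 10 were called lower and none higher, where 3.29% of all genes were called lower. These 7 were all but Ugt8a, Gsn and Enpp2. The contrast that chose the genes is the same, so nothing is read from that count. These ratios set RNA recovered with phosphorylated S6 against total RNA, so they measure neither cell number nor RNA per cell. The cause of the difference was not tested.

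**Figure D1:**
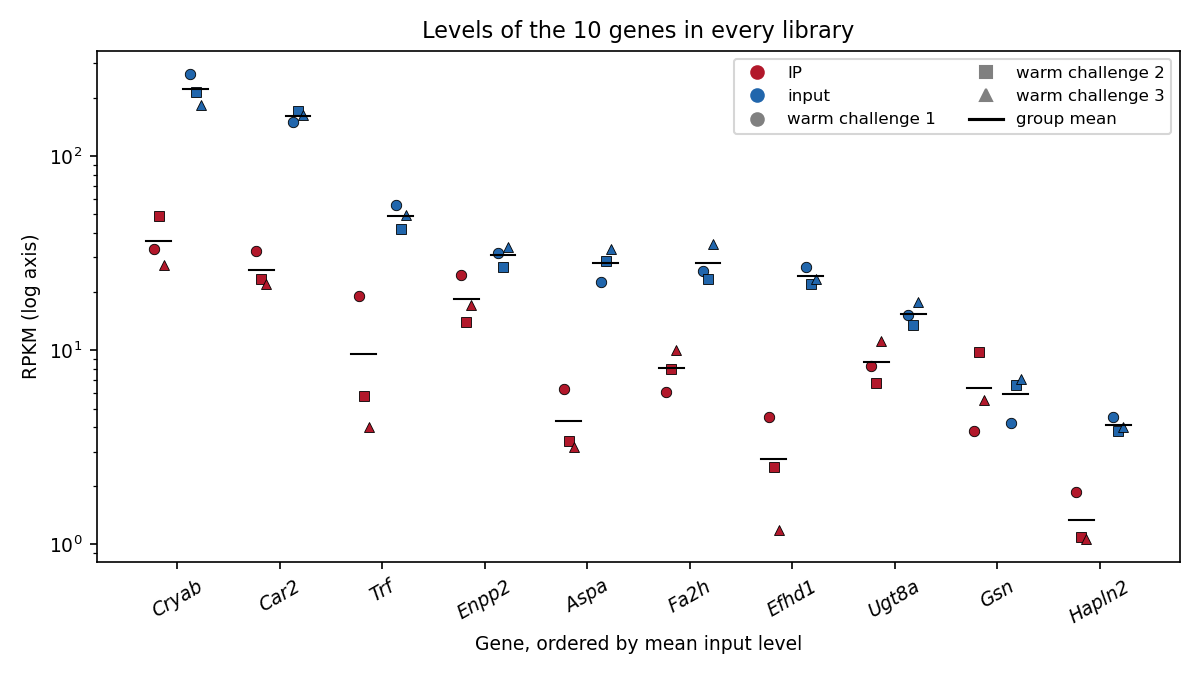
RPKM of each of the 10 genes in the 3 IP libraries (red, left) and the 3 inputs (blue, right) on a log axis, with symbols for the warm challenge and bars for group means. Every IP point lies below every input point for 9 genes, and the points of Gsn mix.

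RefSeq promoter windows (build GRCm38.p6, 250 bases before to 50 after the annotated start) were at hand for Efhd1, Aspa, Hapln2, Ugt8a and Gsn, which has 3 annotated starts. The windows of Efhd1 and Aspa, the 2 genes with the lowest share of input, and of Hapln2 are shown because IP levels of all 3 genes lay below input and yet the windows differ in base composition. The expression table itself uses build mm9. Capitals mark matches on either strand to CTGGNAC, the pattern used here for the myelin regulator MYRF, or to TATAAA, the TATA box. Whether MYRF recognises each such match was not tested.
Efhd1, chr1:87264103-87264402, plus strand: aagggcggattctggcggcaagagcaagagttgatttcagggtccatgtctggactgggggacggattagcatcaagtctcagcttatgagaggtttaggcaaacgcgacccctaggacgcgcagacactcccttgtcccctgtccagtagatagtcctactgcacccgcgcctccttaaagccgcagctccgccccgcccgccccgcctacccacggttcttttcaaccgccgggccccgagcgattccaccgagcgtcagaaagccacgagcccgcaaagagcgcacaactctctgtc
Aspa, chr11:73324588-73324887, minus strand: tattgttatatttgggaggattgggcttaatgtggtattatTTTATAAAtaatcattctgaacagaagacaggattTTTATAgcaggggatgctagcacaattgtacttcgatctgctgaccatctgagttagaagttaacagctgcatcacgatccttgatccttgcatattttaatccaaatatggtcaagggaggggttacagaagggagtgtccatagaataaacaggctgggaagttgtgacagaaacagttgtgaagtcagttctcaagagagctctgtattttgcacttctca
Hapln2, chr3:88027462-88027761, minus strand: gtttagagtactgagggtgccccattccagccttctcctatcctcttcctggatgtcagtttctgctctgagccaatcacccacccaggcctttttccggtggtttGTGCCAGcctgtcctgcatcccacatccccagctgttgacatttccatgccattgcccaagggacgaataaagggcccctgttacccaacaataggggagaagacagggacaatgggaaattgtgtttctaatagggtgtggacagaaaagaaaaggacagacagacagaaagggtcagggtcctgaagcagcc
The share of G and C was 60.7% for Efhd1, 39.0% for Aspa and 52.0% for Hapln2, and 78.3% for the Ugt8a window. The CTGGNAC match of Hapln2 begins 144 bases before the start, and another lies 96 bases before 1 of the 3 starts of Gsn, the gene whose fractions overlapped. Of the 32851 RefSeq windows counted, which leave out 1 chromosome, 19.3% hold such a match. Aspa has 3 TATAAA matches, beginning 209, 207 and 174 bases before the start, of which the first 2 overlap on opposite strands. Of the windows counted, 13.6% hold 1 or more. ACAAAG, the core of SOX factor sites, was in none of the 7 windows of these genes and in 18.7% of the windows counted. These matches describe the letters in the windows and were not tested against the levels.

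The lipid genes differed in how far IP levels lay below input. Ugt8a encodes the galactosyltransferase that makes galactosylceramide. It measured 8.25, 6.76 and 11.1 RPKM in IP 1, 2 and 3, against 15.2, 13.4 and 17.6 RPKM in inputs 1, 2 and 3. Its mean of 8.72 ± 2.23 RPKM in IP was thus 56.6% of the 15.4 ± 2.09 RPKM in input (SD, n = 3 each, as throughout). The log2 fold was -0.77 (SE 0.24). Fa2h, the fatty acid 2-hydroxylase that supplies the hydroxylated tails of myelin galactolipids, measured 6.12, 7.99 and 10.1 RPKM in IP, against 25.7, 23.1 and 35.1 RPKM in input. Its mean of 8.06 ± 1.98 RPKM in IP was 28.8% of the 28.0 ± 6.32 RPKM in input, a log2 fold of -1.68 (SE 0.25). The 2 genes therefore had similar IP levels, and their input ranges did not overlap. For both, the highest IP value and the highest input value fell in warm challenge 3.

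Aspa encodes aspartoacylase, which splits N-acetylaspartate into acetate and aspartate in oligodendrocytes. It measured 6.31, 3.42 and 3.17 RPKM in IP, against 22.6, 28.8 and 33.0 RPKM in input. Its mean was 4.30 ± 1.74 RPKM in IP and 28.1 ± 5.25 RPKM in input, a log2 fold of -2.49 (SE 0.27). The library order was opposite in the 2 fractions, with IP highest in warm challenge 1 and input lowest there, so the IP level was 28.0% of the input of the same number in challenge 1, 11.9% in challenge 2 and 9.61% in challenge 3.

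Trf encodes transferrin, the iron carrier. It measured 18.9, 5.83 and 4.03 RPKM in IP, against 55.9, 41.9 and 49.4 RPKM in input. Its mean was 9.60 ± 8.14 RPKM in IP and 49.1 ± 7.01 RPKM in input, a log2 fold of -2.50 (SE 0.44). Trf had the widest spread of the 10 genes in IP, where its highest value was 4.70 times its lowest, against 1.33 times in input. IP 1 stood out, and without that library the fold was -3.09.

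Car2 and Cryab were the most abundant of the 10 genes in both fractions. Car2, a cytosolic carbonic anhydrase that interconverts carbon dioxide and bicarbonate, measured 32.5, 23.2 and 22.0 RPKM in IP, against 149, 169.5 and 162 RPKM in input. Its mean was 25.9 ± 5.74 RPKM in IP and 160.2 ± 10.5 RPKM in input, a log2 fold of -2.60 (SE 0.23), and its input values varied least of the 10 genes (coefficient of variation 6.57%). Cryab, alpha B-crystallin, is a small heat shock protein that holds unfolded proteins in solution. It measured 33.1, 49.1 and 27.4 RPKM in IP, against 264, 214 and 183 RPKM in input. Its mean was 36.5 ± 11.3 RPKM in IP and 220.3 ± 41.0 RPKM in input, a log2 fold of -2.59 (SE 0.28). Both genes thus kept about the same share of their input level, 16.2% for Car2 and 16.6% for Cryab, but IP was highest in warm challenge 1 for Car2 and in challenge 2 for Cryab.

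Efhd1, an EF-hand calcium-binding protein of mitochondria, had the lowest share of its input. It measured 4.54, 2.49 and 1.19 RPKM in IP, against 26.8, 21.9 and 23.4 RPKM in input. Its mean was 2.74 ± 1.69 RPKM in IP and 24.0 ± 2.55 RPKM in input, a log2 fold of -2.84 (SE 0.32). The share of the same-numbered input was 16.9% in challenge 1, 11.4% in challenge 2 and 5.09% in challenge 3. Hapln2, a link protein that binds hyaluronan and proteoglycans around nodes of Ranvier, was the least abundant of the 10 in both fractions. It measured 1.85, 1.09 and 1.07 RPKM in IP, against 4.55, 3.82 and 4.02 RPKM in input. Its mean was 1.34 ± 0.446 RPKM in IP and 4.13 ± 0.377 RPKM in input, a log2 fold of -1.15 (SE 0.22). The 2 fractions did not overlap for either gene. With a pseudocount of 0.1 in place of 1 the log2 fold of Hapln2 was -1.60, and with 5 it was -0.53.

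Enpp2 and Gsn had the highest ratios of IP to input means of the 10 genes, with Ugt8a next. Enpp2 encodes autotaxin, the secreted enzyme that makes lysophosphatidic acid. It measured 24.3, 14.0 and 17.0 RPKM in IP, against 31.6, 26.8 and 33.8 RPKM in input. Its mean was 18.4 ± 5.32 RPKM in IP and 30.7 ± 3.58 RPKM in input, a log2 fold of -0.74 (SE 0.25). Gsn encodes gelsolin, which severs and caps actin filaments. It measured 3.84, 9.80 and 5.56 RPKM in IP, against 4.19, 6.64 and 7.10 RPKM in input. Its mean was 6.40 ± 3.07 RPKM in IP and 5.98 ± 1.56 RPKM in input, a log2 fold of 0.03 (SE 0.32). The 2 fractions overlapped for Gsn, and its share of the same-numbered input was 91.6%, 148% and 78.2% in challenges 1, 2 and 3. Its sign followed the choice of libraries, at 0.30 without IP 1 and -0.28 without IP 2.

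**Figure D2:**
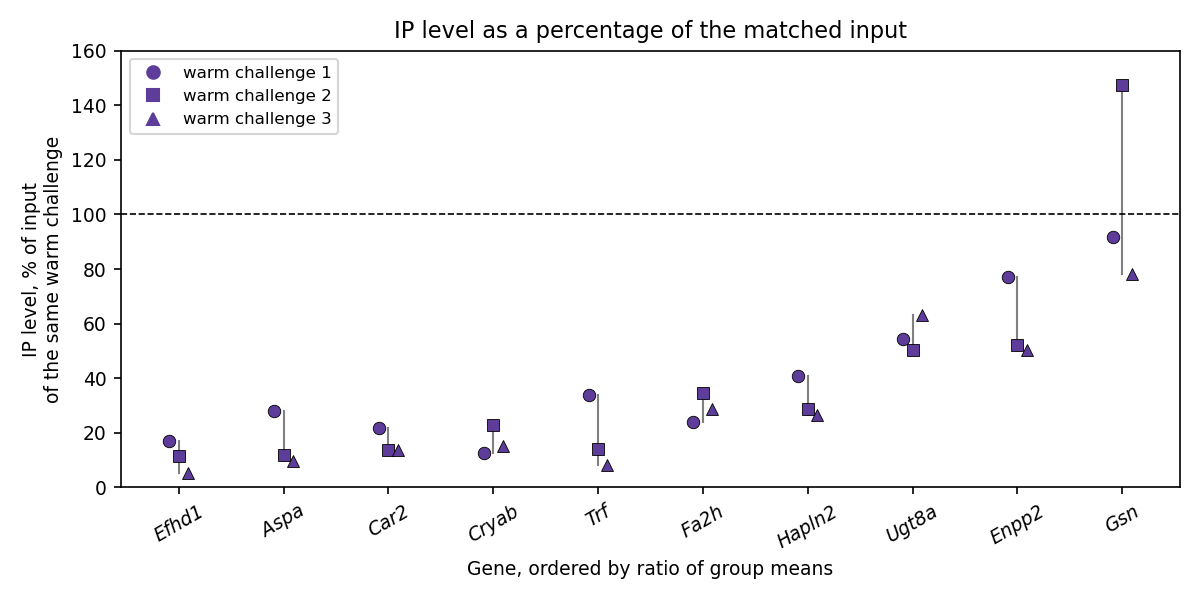
IP level as a percentage of the input of the same warm challenge for each gene, with 1 point per challenge and a grey line over their range. The dashed line marks 100%, which only Gsn in challenge 2 exceeded, and Efhd1 in challenge 3 was lowest at 5.09%.

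In input the order of mean levels was Cryab, Car2, Trf, Enpp2, Aspa, Fa2h, Efhd1, Ugt8a, Gsn and Hapln2. Neighbouring genes in that order had separate ranges for Cryab and Car2, Car2 and Trf, Trf and Enpp2, Efhd1 and Ugt8a, and Ugt8a and Gsn, whereas Enpp2, Aspa, Fa2h and Efhd1 overlapped in turn, as did Gsn and Hapln2. In IP the order was Cryab, Car2, Enpp2, Trf, Ugt8a, Fa2h, Gsn, Aspa, Efhd1 and Hapln2, and the ranges of all neighbours overlapped. Set among the 12328 genes tested, Cryab stood at the 82.3rd percentile in IP and the 97.4th in input, and Car2 at the 76.1st and the 96.3rd. Aspa stood at the 29.4th percentile in IP and the 76.5th in input, and Efhd1 at the 19.7th and the 72.8th. Enpp2 moved less in rank, at the 68.3rd in IP and the 78.4th in input, and Gsn ranked higher in IP (39.1st) than in input (33.4th).

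The IP libraries varied more than the inputs. The coefficient of variation was higher in IP for all 10 genes, with a median of 32.1% in IP and 13.9% in input. The same was true of 71.2% of all genes tested, whose medians were 28.4% in IP and 18.2% in input. Among IP libraries, IP 1 held the highest value for 6 of the 10 genes (Car2, Trf, Enpp2, Aspa, Efhd1 and Hapln2), and it held the highest IP value for 40.01% of all genes. The median log2 fold over the 10 genes was -1.60, -1.76 and -2.20 in challenges 1, 2 and 3, against -0.22, -0.17 and -0.17 over all genes tested. The sum of the structural myelin genes did not share that library order. It was 430 RPKM in IP 1, 586 in IP 2 and 621 in IP 3, while the 10 genes summed to 139.7, 124 and 103 RPKM. Not every gene of that list followed its sum: Mal (11.5, 5.82 and 7.57 RPKM) and Ermn (7.83, 5.30 and 2.74 RPKM) were highest in IP 1. Without IP 1 the log2 fold of Enpp2 was -0.94. The fit without that library called 8 of the 10 genes lower, where 10.2% of all genes were called lower, and nothing is read from that count either.

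Over the 6 libraries, Car2, Aspa, Efhd1, Hapln2, Cryab, Fa2h and Trf followed the mean standardised profile of the 10 genes with Pearson correlations from 0.931 to 0.993. Enpp2 (0.881) and Ugt8a (0.869) followed it less closely and Gsn (-0.05) not at all. Each gene is part of that mean. The genes outside the 10 with the most similar profiles were Zfp161 and Spc24 (0.999 each), D130012P04Rik (0.998), A930001N09Rik and Ccdc57 (0.997 each). With 6 libraries in 2 fractions, such values are reached by genes whose levels fall into 2 tight groups: Zfp161 measured 7.10, 6.52 and 6.38 RPKM in IP, against 13.6, 13.7 and 15.8 RPKM in input.

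The pathways and families around the 10 genes showed few calls. Across 9 lists, 91 related genes were tested. Of these, 4 were called lower (4.40%), 1 higher (1.10%) and 86 were not called, where 3.29% of all genes were called lower and 0.892% higher. Their median log2 fold was -0.19, against -0.18 over all genes. All 5 calls held without IP 1, and Cers2 also held without IP 2, but every other omission of 1 library ended them, with adjusted p between 0.0543 and 0.178. Median scaling of the libraries also ended those of Car14, Lpar1 and Micu2 (limma adjusted p = 0.0741, 0.0587 and 0.0913), and so did quantile normalization (0.108, 0.0639 and 0.0884).

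**Figure D3:**
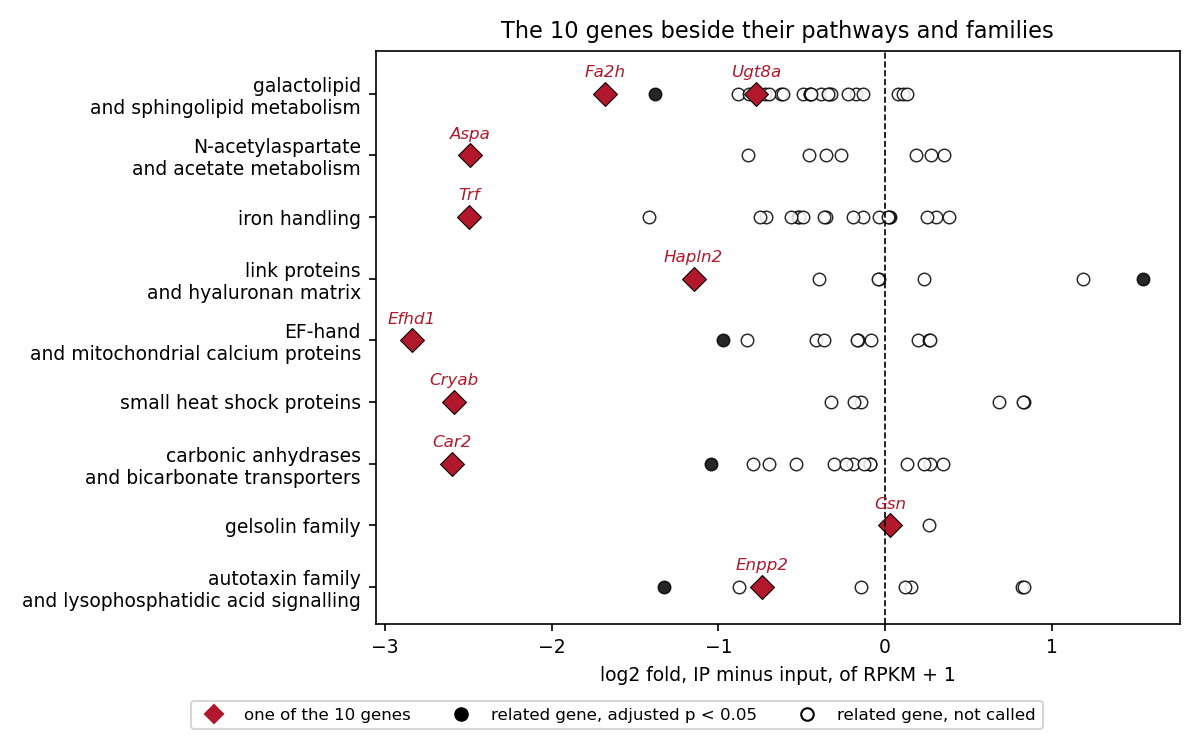
Log2 folds of IP minus input for each of the 10 genes (red diamonds) on the row of its pathway or family, with related genes as circles, filled where limma called them. Aspa, Trf, Efhd1, Cryab, Car2, Fa2h and Hapln2 lie to the left of every related gene on their rows, while Ugt8a, Gsn and Enpp2 lie among or near theirs.

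Among genes of galactolipid and sphingolipid metabolism, 1 of 22 was lower, none higher, and the median log2 fold was -0.45. The lower one was Cers2, the ceramide synthase of very long acyl chains, listed under its older symbol Lass2. It measured 7.79, 8.59 and 6.12 RPKM in IP, against 23.3, 18.3 and 21.5 RPKM in input (log2 fold -1.38, SE 0.22, limma adjusted p = 0.0181). For Galc, which degrades galactosylceramide, the log2 fold was -0.72 (adjusted p = 0.116, and 0.0404 without IP 1), and Gal3st1, which sulphates it, -0.61 (adjusted p = 0.261). Of the 7 genes of N-acetylaspartate and acetate metabolism none was called. For Nat8l, the enzyme that makes N-acetylaspartate in neurons, the log2 fold was 0.19 (adjusted p = 0.610), with values of 21.0 to 25.7 RPKM in IP and 19.3 to 21.8 RPKM in input. Acss1, a mitochondrial acetyl-CoA synthetase, had -0.82 (adjusted p = 0.107, and 0.0328 without IP 1) and Rimklb, which joins glutamate to N-acetylaspartate, -0.46 (adjusted p = 0.196).

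None of 18 genes of iron handling was called, and their median log2 fold was -0.27. Fth1, the ferritin heavy chain that stores iron, measured 810.1, 873 and 697 RPKM in IP, against 2359, 2519 and 1581 RPKM in input (SE 0.39, adjusted p = 0.0723). The log2 fold of Fth1 was -1.42, and its adjusted p passed the threshold after quantile normalization (0.0479) and without the variance trend (0.0273). For Fbxl5, an iron-sensing ubiquitin ligase subunit, the fold was -0.75 (adjusted p = 0.0975, and 0.0182 without IP 1). Tfrc, the transferrin receptor, had -0.36 (adjusted p = 0.393), with 5.20 to 8.71 RPKM in IP and 7.99 to 9.26 RPKM in input.

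Of 6 genes of link proteins and the hyaluronan matrix around Hapln2, 1 was higher and none lower, and 3 of the folds were positive and 3 negative. It was Tnr, tenascin-R, a matrix protein of perineuronal nets and nodes, at 11.9, 16.1 and 23.2 RPKM in IP, against 4.18, 4.42 and 6.55 RPKM in input (log2 fold 1.55, SE 0.28, adjusted p = 0.0274). The link protein gene Hapln4, which is expressed by neurons, had 1.19 (adjusted p = 0.0696, and 0.0124 without IP 1), and Hapln1 -0.03 (adjusted p = 0.953). For Efhd1, its paralogue Efhd2 gave a log2 fold of -0.42 (adjusted p = 0.315), with 32.2 to 50.5 RPKM in IP and 53.3 to 61.6 RPKM in input. In that list of EF-hand and mitochondrial calcium proteins, 1 of 10 was lower, namely Micu2, a regulator of the mitochondrial calcium uniporter listed as Efha1 (log2 fold -0.97, adjusted p = 0.0426).

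None of 6 small heat shock genes and partners was called, and their median log2 fold was 0.27, or 0.45 after median scaling. Hspb8 measured 41.2, 67.8 and 50.9 RPKM in IP, against 45.5, 30.4 and 23.8 RPKM in input (log2 fold 0.69, adjusted p = 0.187). Hspb1 had -0.32 (adjusted p = 0.648), Hspb6 -0.15 (adjusted p = 0.784) and Hspb3 0.83 (adjusted p = 0.0742, and 0.0384 after quantile normalization). Among 14 carbonic anhydrases and bicarbonate transporters 1 was lower. Car14, a membrane-bound carbonic anhydrase, measured 1.16, 1.53 and 1.91 RPKM in IP, against 3.60, 3.76 and 5.33 RPKM in input (log2 fold -1.04, SE 0.23, adjusted p = 0.0426). Car11, a relative without catalytic activity, had 0.27 (adjusted p = 0.799, and 0.0480 without IP 1), with 7.16 RPKM in IP 1 but 27.6 and 42.3 RPKM in IP 2 and IP 3.

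The gelsolin family had 1 relative tested, Flii (log2 fold 0.26, adjusted p = 0.590). Of 7 genes of the autotaxin family and lysophosphatidic acid signalling, 1 was lower and none higher. Lpar1, the receptor for lysophosphatidic acid that oligodendrocytes express, measured 2.57, 0.881 and 1.19 RPKM in IP, against 5.69, 4.82 and 4.99 RPKM in input (log2 fold -1.33, SE 0.27, adjusted p = 0.0341). Enpp4 had -0.87 (adjusted p = 0.0721, and 0.0189 without IP 1) and Enpp5 -0.15 (adjusted p = 0.707). Enpp6, a choline-specific phosphodiesterase known from newly formed oligodendrocytes, had 0.83 (adjusted p = 0.0903, and 0.0266 without IP 1), at 4.05, 6.80 and 6.47 RPKM in IP and 3.49, 2.52 and 2.35 RPKM in input.

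Set beside other oligodendrocyte genes, the median log2 fold was -2.08 for the 10 genes, -1.69 for 15 structural myelin genes and -0.46 for 13 lineage and precursor genes. Structural myelin genes were called lower in 10 of 15 cases and higher in none, with the largest folds for Ermn (-3.35, adjusted p = 0.00385) and Mal (-3.33, adjusted p = 0.00131). Ermn stood at 8.69% and Mal at 9.16% of input, below the 11.4% of Efhd1. Lineage and precursor genes had 1 call in each direction. Olig1, a transcription factor of the whole lineage, had -1.48 (adjusted p = 0.0314), and Gpr17, a receptor of committed precursors, 1.36 (adjusted p = 0.0433). The omission of any input, or of IP 3, ended both calls, and so did that of IP 2 for Gpr17 and median scaling for Olig1 (adjusted p = 0.0549). Without IP 1, 3 of the 13 lineage and precursor genes were called higher and 2 lower. Of all 12233 genes tested in that fit, 443 were called higher and 1250 lower. The structural myelin and lineage lists were also written with earlier results of these data known, so their calls and adjusted p are descriptions. The difference between these oligodendrocyte lists was not tested.

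**Figure D4:**
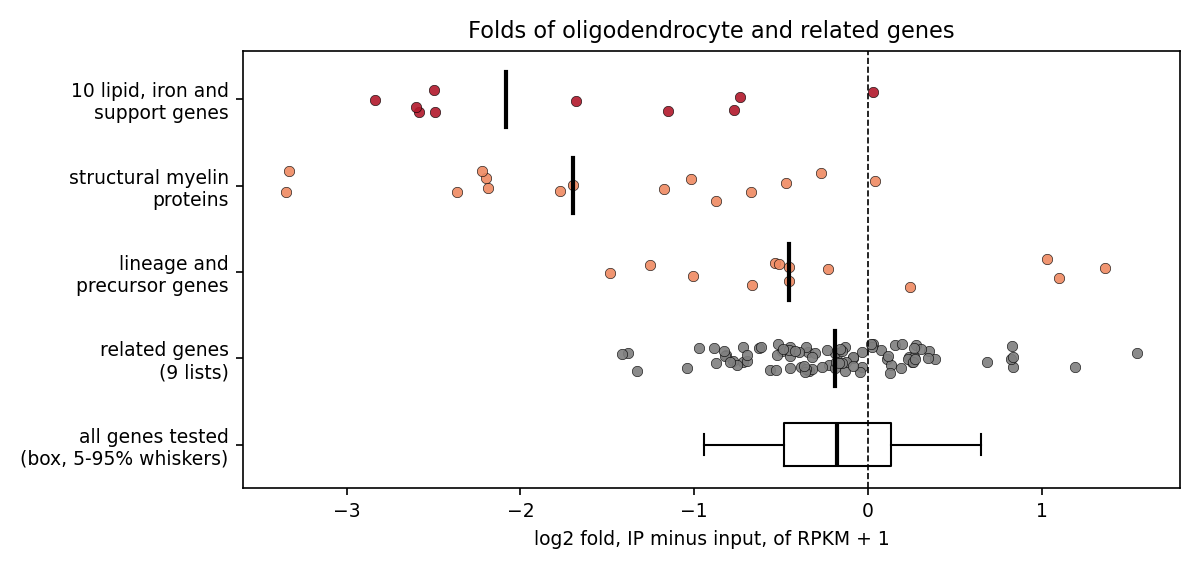
Log2 folds of IP minus input, 1 point per gene, for the 10 genes, structural myelin genes, lineage and precursor genes and the related genes of 9 lists, with black bars for medians and a box for all genes tested. Medians run from -2.08 for the 10 genes to -0.18 for all genes tested.

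Markers of other cells that could hold these transcripts were summed per library, and their part in the result was not tested. Astrocyte markers summed to 303 to 339 RPKM in IP and 333 to 450.1 RPKM in input, and none of 12 was called (median log2 fold -0.33), but 3 were called lower without IP 1. Aqp4 (log2 fold -1.14, adjusted p = 0.0616, and 0.0210 without IP 1) and Gfap (-1.07, adjusted p = 0.0834, and 0.00994 without IP 1) had the smallest p. Of 14 choroid plexus markers 7 were listed, with sums of 26.2 to 57.0 RPKM in IP and 35.8 to 37.7 RPKM in input. None of the 6 tested was called, with Kl at -0.43 (adjusted p = 0.264) and Otx2 at 0.37 (adjusted p = 0.465). Ependymal markers (5 of 9 listed) summed to 5.12 to 12.8 RPKM in IP and 10.8 to 37.2 RPKM in input. Of the 5 tested 1 was lower, Ccdc153 (log2 fold -1.70, adjusted p = 0.0465), a call that held in 1 of 6 omissions of a library.

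Microglial markers summed to 13.9 to 16.7 RPKM in IP and 17.4 to 33.4 RPKM in input, with none of 5 called (Ctss -0.84, adjusted p = 0.205, and Aif1 -0.59, adjusted p = 0.296). Mural markers (5 of 9 listed) summed to 2.38 to 3.18 RPKM in IP and 5.78 to 7.69 RPKM in input. Of the 2 tested 1 was lower, Rgs5 (log2 fold -1.32, adjusted p = 0.0305), a call that held in 2 of 6 omissions. Fibroblast markers (5 of 10 listed) summed to 3.98 to 7.14 RPKM in IP and 7.62 to 10.4 RPKM in input. None of the 3 tested was called (the log2 fold of Igf2 was -1.19, adjusted p = 0.0934 and 0.0365 without IP 3, and that of Pdgfra -0.46, adjusted p = 0.299). Of 10 endothelial markers only 2 were listed, with sums of 2.32 to 2.73 RPKM in IP and 2.44 to 2.91 RPKM in input. Itm2a, the single one tested, had -0.02 (adjusted p = 0.965). None of 11 neuronal markers was called. Their median log2 fold was 0.09, with 7 positive and 4 negative and the lowest at -0.53. The smallest p were those of Nefl at 0.82 (adjusted p = 0.0976) and Nefm at 0.77 (adjusted p = 0.105, and 0.0498 without IP 1). Red cell markers summed to 202 to 567 RPKM in IP and 14.1 to 50.3 RPKM in input, and all 3 tested were higher, among them Hbb-b1 (log2 fold 3.26, adjusted p = 0.0192) and Hba-a1 (2.90, adjusted p = 0.0240), whose calls held only without IP 1 when 1 library was left out. The call of Hba-a2 (2.90, adjusted p = 0.0162) held in 4 of 6 omissions.

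**Figure D5:**
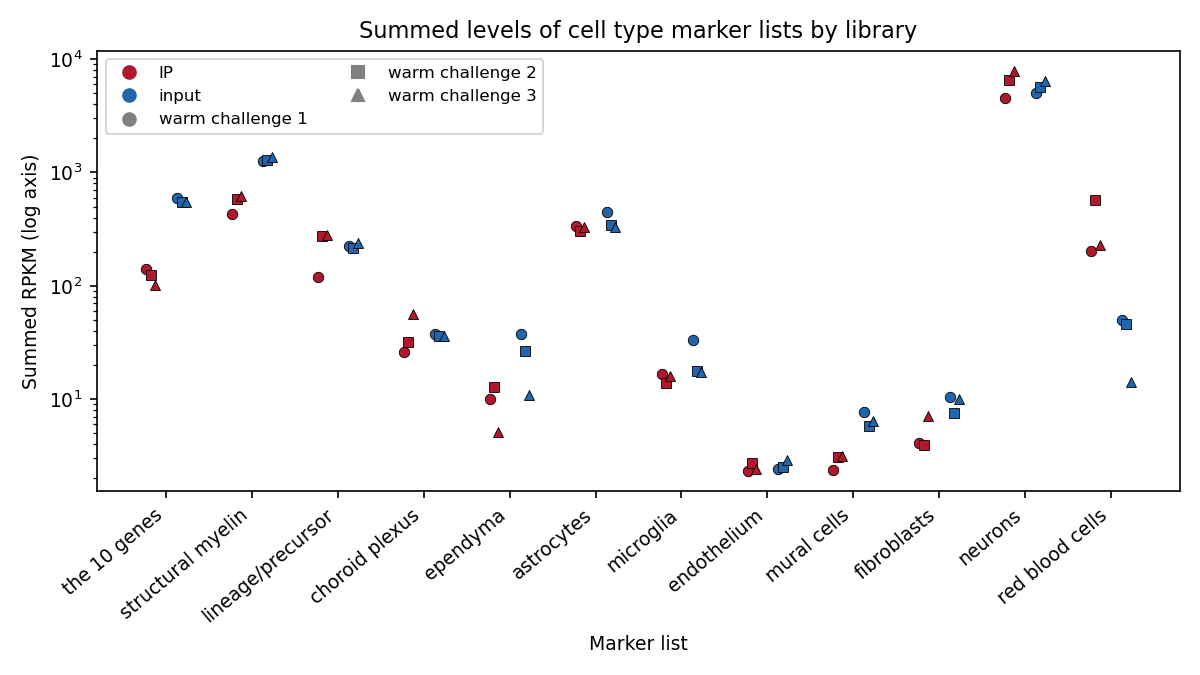
Summed RPKM of each marker list in the 3 IP libraries (red, left) and the 3 inputs (blue, right) on a log axis, with symbols for the warm challenge. The 10 genes (103 to 139.7 RPKM in IP, 549 to 599.6 RPKM in input) and structural myelin genes lie lower in IP. Microglial, mural and fibroblast lists also lie lower in every IP library than in every input, and red cell markers lie higher. The fractions overlap for lineage and precursor, neuronal, astrocyte, ependymal, choroid plexus and endothelial lists.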

How the data were processed

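The 6 columns of the table that the authors deposited hold RPKM per gene, not log-transformed, for 3 IP and 3 input libraries. Per the submitters' processing notes, the build was mm9. Which aligner, counter and gene models were used is not given in the sources used here. No listed value lies below 0.101 RPKM. Values below 0.6 RPKM were examined for steps of whole reads, as ratios of each library to input 1 over a range of relative depths. At the best depth at most 17.6% (input 3) came within 1% of a ratio of small whole numbers, against a median of 7.14% over the depths. Reads were therefore not recovered.

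Here log2(RPKM + 1) of 12328 genes was fitted with limma 3.58.1 in R 4.3.3 (eBayes with trend, no block). Tables and plots used Python 3.11.15, numpy 2.4.6, pandas 2.3.3 and matplotlib 3.10.9.

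The 10 genes and all lists were chosen with earlier results of these data known, so the adjusted p of list genes are descriptions too. Older symbols were matched through RefSeq synonyms that name no other gene, and 103 of 139 related genes were listed. Slc4a4 stands in the transporter and astrocyte lists and Pdgfra in the precursor and fibroblast lists. Named are the 10 genes, the 2 called genes with the largest fold of each list (where none was called, the 2 of smallest p), a set of paralogues and pathway partners written with the lists (such as Galc, Gal3st1, Nat8l and Tfrc), and the 5 genes of most similar profile. Alternatives changed the pseudocount, filter, scaling, block and trend, and left out each library in turn.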

Additional observations from a re-analysis of the deposited data

How the results depend on the processing

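IP and input libraries carry the same challenge numbers, but the labels do not say that a number marks shared animals or a shared day. Across genes, deviations from the group means correlated by 0.05, 0.61 and 0.27 between libraries numbered 1, 2 and 3, and IP 1 correlated best with input 3 (0.18). With the number as a replicate block, all genes called numbered 656 against 516 without it, and 5 related genes were called. In that fit 7 of the 10 genes were called lower, where 492 of all 12328 genes tested were, and nothing is read from that count. Among named genes the block changed only the call of Aqp4 (adjusted p = 0.0400).

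Without the block, all genes called numbered 249 after median scaling, 253 after quantile normalization and 21 to 1693 with 1 library left out. The median log2 fold of members of the 10-gene set was -1.58 with a pseudocount of 5 and -2.49 with a filter of 5 RPKM. That filter left 9 of the 10 genes, without Hapln2, so the 2 medians cover different genes. After median scaling and after quantile normalization 6 of the 10 genes were called lower, without Hapln2. Of all 12328 genes tested, 128 and 124 were called lower in those fits. Of the 10 genes, 4 to 8 were called lower with 1 library left out, the lowest count without IP 2 or any 1 input and the highest without IP 1. The call of Fa2h held in 2 of 6 such omissions, and those of Trf and Hapln2 in 1 of 6 each. Of all genes tested, the same fits called from 17 of 12072 lower (without input 2) to 1250 of 12233 (without IP 1). The choice of the genes used this contrast, so nothing is read from these counts. Related genes called were 3 with the 5 RPKM filter, 2 after median scaling and 0 to 20 with 1 library left out.

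All of the 10 genes but Gsn kept a negative fold in every alternative that tested them (14, or 13 for Hapln2). Among genes not called, signs turned after median scaling in the log2 fold of Hapln1 (0.0784), the log2 fold of Hspb6 (0.0295), the log2 fold of Enpp5 (0.0406) and the log2 fold of Itm2a (0.11), and after quantile normalization for Hapln1 (0.29), Hspb6 (0.0087) and Itm2a (0.27). With 1 library left out they spanned -0.17 to 0.16 for Hapln1, -0.23 to 0.97 in the log2 fold of Car11, -0.58 to 0.15 in the log2 fold of Hspb1, -0.36 to 0.0881 for Hspb6, -0.0135 to 0.42 in the log2 fold of Flii and -0.11 to 0.0402 for Itm2a. The median log2 fold of all genes tested also rose, from -0.18 to -0.0154 after median scaling and -0.0127 after quantile normalization. The cause of the turned signs was not tested. Absolute depth is unknown, which limits what can be said of Hapln2 near 1 RPKM.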

Other observations

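Of the listed symbols, 12 stand on 2 entries each, none of them among the 10 genes. The 2 entries of Cct6a carry 56.5 and 418 RPKM in IP 1, 35.2 and 400.3 RPKM in IP 2, but 393 and 28.7 RPKM in IP 3. The inputs show the same reversal, with 33.2 and 357 RPKM in input 1, 36.9 and 463 RPKM in input 2, and 529 and 37.4 RPKM in input 3. Tusc3 has 25.5 and 66.9 RPKM in IP 1 against 78.7 and 20.7 RPKM in IP 2, and D5Ertd579e has 23.6 and 6.41 RPKM in IP 2 against 5.08 and 29.1 RPKM in IP 3. These symbols were chosen after their values were seen. Where entries of a symbol trade places between libraries, the fit of each entry mixes them, and no such gene is named elsewhere here.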
